A study of Mus musculus with 3 samples.

Results

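The mouse genes described here are those that the array's own annotation names Zfp followed by a number, a symbol given to genes that encode zinc finger proteins. The rule uses the symbol and no measured value, although earlier results of these arrays were known when it was written, and it took in 216 of the 18120 genes on the array, read by 319 of its 25697 probes. All 3 arrays carried RNA of dorsal dermal fibroblast progenitors, mesenchyme of the embryonic back from which skin fibroblasts descend. These cells were cut by laser capture from 5 embryos at embryonic day 12.5, and their RNA was pooled before it was amplified with an Ambion kit. The embryos were Engrailed1Cre/+;R26R/+, that is, they carried 1 Cre allele at Engrailed1, a gene active in part of the somite and in other tissues of the embryo, and 1 Cre reporter allele at Rosa26. The arrays were technical replicates of 1 pool, so each SD covers array-to-array error and says nothing of variation among embryos. There was 1 group and no contrast, and the question the arrays can answer is which Zfp transcripts were readable in this pool.

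A zinc finger is a short stretch of protein folded around a zinc ion. In the most common kind, pairs of cysteine and histidine hold the zinc, and arrays of such fingers read DNA bases. Many of these proteins also carry a KRAB domain, which recruits the corepressor Trim28, and KRAB zinc finger genes lie in clusters that arose by repeated duplication and are best known for silencing transposons. The symbol also covers unrelated zinc binding proteins, among them the CCCH proteins that bind RNA. Symbols alone do not give a protein's function, and many Zfp genes have no known role.

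Detection followed the deposited detection p, which had to be under 0.01 on each of the 3 arrays for a probe to count. One such probe sufficed for its gene to count. Of the 319 Zfp probes 138 (43.3%) were detected, beside 37.7% of all probes. Of the 216 Zfp genes 114 (52.8%) were detected, beside 43.4% of all genes on the array. The array's chemosensory receptor and beta-defensin genes, which were nearly all undetected, lower that background, and without them 7861 of 16843 genes (46.7%) were detected. Among other zinc finger families, the Zbtb, Zkscan, Zscan, Klf and Zic genes, 22 of 35 (62.9%) were detected. The number of probes per gene moved with detection in the Zfp genes and in the array as a whole. With 1 probe, 65 of 143 Zfp genes (45.5%) were detected, beside 37.7% of all genes with 1 probe, and with 2 probes the values were 31 of 50 (62.0%) and 53.3%. With 3 probes 14 of 18 Zfp genes (77.8%) were detected, beside 65.2%. The Zfp share lay above the array's share in each of these classes. The array's shares by class keep the chemosensory and beta-defensin genes, which lower them, and were not computed without them. No test was made, since the series has no contrast.

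**Figure D1:**
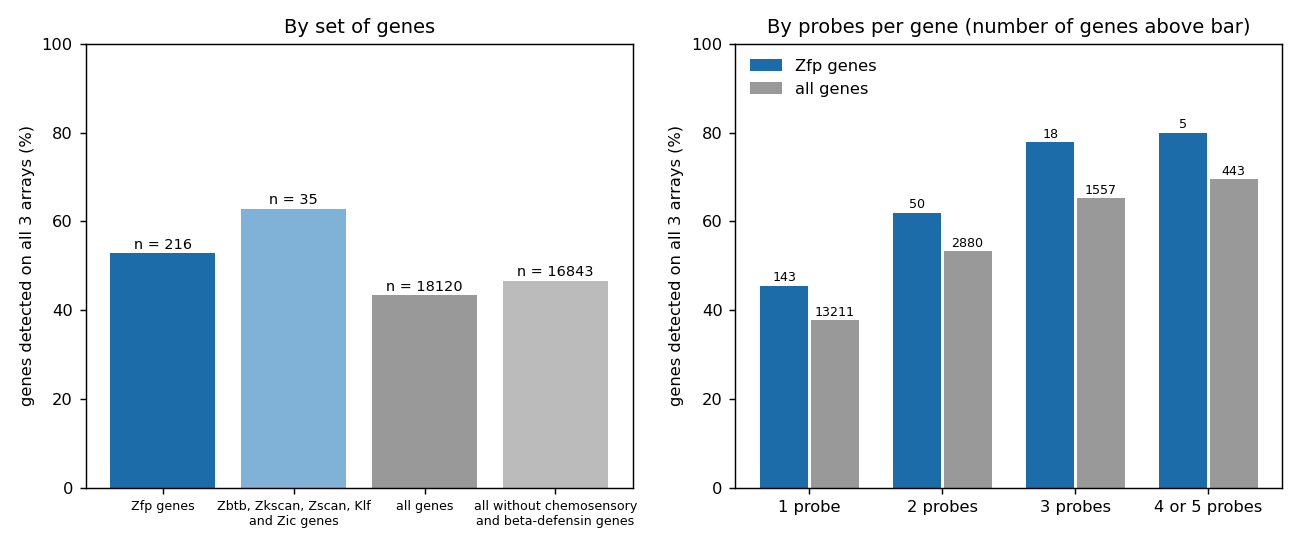
Percent of genes detected on all 3 arrays. The left panel sets the Zfp genes (52.8% of 216) beside other zinc finger families, all genes, and all genes without the chemosensory and beta-defensin genes; the right panel splits Zfp genes and all genes by the number of probes per gene, with the number of genes above each bar. Both sets are detected more often where a gene has more probes. The bars of all genes in the right panel keep the chemosensory and beta-defensin genes.

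The arrays differed in how many Zfp probes they read. Array 1 detected 177 (55.5%), array 2 detected 142 (44.5%) and array 3 detected 159 (49.8%), beside 44.9%, 39.0% and 41.6% of all probes. Array 2, whose non-normalized signal was multiplied by 2.07 in the deposited normalization where the other arrays had 0.672 and 0.699, read the fewest. Of the 24 Zfp probes (7.52%, beside 4.09% of all probes) that passed on 2 arrays only, 20 (83.3%) missed the threshold on array 2, nearly the share of all such probes (84.3%). A further 16 Zfp probes (5.02%, beside 4.18%) passed on 1 array and 141 (44.2%, beside 54.0%) on none, so 40 Zfp probes had different calls on different arrays. Markers of other cell types were also read in the pool. Those of dermal mesenchyme were detected at 7 of 8 (highest mean normalized signal 4563, Dpt undetected). Epidermis gave 3 of 3 (highest 1313) and endothelium 2 of 3 (220.1, Kdr undetected). Immune cells gave 2 of 3 (164, Ptprc undetected) and muscle 2 of 3 (3236 for Actc1, Myod1 undetected). Neurons gave 1 of 2 (997, Tubb3 undetected) and the erythroid lineage 3 of 3 (48801). Whether the progenitors themselves carried such transcripts was not tested. The 2 germline markers were undetected. Sox10, planned as a marker of neural and Schwann cells, gave no reading, so Schwann cells were not assessed. The part of other cell types in any Zfp signal was not tested. In such a pool few cells with much of a transcript and many cells with little of it cannot be told apart.

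Signals are normalized intensities in arbitrary units, given as the readings of arrays 1, 2 and 3 or as mean ± SD over the arrays (n = 3), for the gene's probe with the highest mean. Probes differ in how brightly they report a transcript, so a level of one gene is not set against that of another. Of 36 measured Zfp genes on chosen lists of known roles, 16 (44.4%) were detected, a share near the 43.4% of all genes. The lists leave out other Zfp genes with a known role, so this share describes the lists only. The role groups are small, with 1 to 7 measured genes each, and their counts are read gene by gene and not as results about a group.

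The CCCH proteins of the tristetraprolin family bind AU-rich elements of messenger RNAs and speed their decay. Zfp36l1 read 8994, 9995 and 8547 on the 3 arrays (9179 ± 741), and each of its 3 probes was detected. Another probe of the gene read 5523, 6139 and 5604, and the last one 158, 147 and 152. All 3 probes thus lay above background on every array, with array 2 highest at the first pair and lowest at the last. Zfp36, which encodes tristetraprolin itself, read 124, 134 and 137 (132 ± 6.63) and was detected. Zfp36l2, which acts on the same kind of element, read 5.50, 26.5 and 0.742 and was not detected, and Zfp36l3, a family member of the rodent placenta, was not detected either, at -7.43, -0.654 and 8.63. The family thus gave 2 detected genes of 4.

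Genes that act in mesenchyme, fat and cartilage were detected at 3 of 6. Zfp521, a nuclear cofactor that restrains fat cell formation and antagonises Ebf1, read 900, 903 and 854 (886 ± 27.2). Its other probe read -13.8, -8.88 and -10.6, at background on every array, so the gene's call rests on 1 of 2 probes. Zfp219, which encodes a partner of Sox9 in cartilage cells, read 572, 573 and 595 (580 ± 12.8). Both genes were steady across the arrays. Zfp467, which in marrow stromal cells favours fat over bone, read 72.1, 62.0 and 55.7, above the threshold on each array but dim. Zfp423, the paralog of Zfp521 that commits cells to the fat lineage, read 37.0, 26.2 and 34.4. It passed on arrays 1 and 3 and missed on array 2, where its detection p was 0.0627, and so was not detected by the rule used here. Zfp217 (9.34 ± 6.69), whose human counterpart is amplified in breast cancer, and Zfp385, now Zfp385a (18.5 ± 13.0), were not detected.

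Factors of stem cells and of imprinting were detected at 2 of 6. Zfp281, a regulator of pluripotency that is also expressed outside stem cells, read 186, 203 and 226 (205 ± 20.1). Zfp143, an activator of small nuclear RNA and many protein-coding promoters, read 79.3, 51.3 and 60.8 (63.8 ± 14.3). The genes tied most closely to embryonic stem cells and imprints were at background. Zfp42, known as Rex1 and a marker of naive stem cells, read 13.3, 34.6 and 6.05. Zfp57, which guards imprinted methylation, read 3.48, 0.398 and 2.21. Zfp445, which shares that task, gave -5.40 ± 8.21, and Zfp296, a partner of Klf4 in reprogramming, 7.42 ± 3.80.

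Genes of neural development and patterning were detected at 3 of 6. Zfp238, now Zbtb18, a repressor needed for neuron and muscle differentiation, read 540, 494 and 510 (514 ± 23.4), and 2 of its 5 probes were detected. Zfp191, now Zfp24, which oligodendrocytes need for myelination, read 73.9, 87.8 and 71.1. Zfp462, whose human counterpart is mutated in a craniofacial syndrome, read 41.2, 50.5 and 43.8. The 3 readings of each gene were close, the dim ones included. Zfp503, a striatal and limb factor, gave 0.449 ± 5.32, Zfp536, a repressor of neuron differentiation, 17.3 ± 16.7, and Zfp488, an oligodendrocyte factor, -3.83 ± 4.17; none was detected. Of the neural markers Stmn2 was detected at 997 ± 26.7 and Tubb3 was not.

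Proteins of RNA, the ribosome and the spindle were detected at 4 of 7. Zfp326, which in human cells couples elongation to splicing, read 770, 786 and 840 (799 ± 36.9) and was detected by 3 of 3 probes. Zfp346, which binds double-stranded RNA, read 543, 497 and 522 (520 ± 22.7). Zfp318, which in B cells governs the processing of immunoglobulin transcripts, read 307, 254 and 290. Each of these was above 250 on every array. Zfp207, a Bub3 partner at the kinetochore, read 168, 176 and 207 (184 ± 20.5). Zfp106, an RNA binding protein of muscle and motor neurons, read 28.7, 24.1 and 16.5 and passed on array 1 only. Zfp598, the ubiquitin ligase that senses collided ribosomes, gave 16.1 ± 11.4, and Zfp622, a factor of large ribosomal subunit maturation, 21.9 ± 5.94. Neither was detected, although both act in general processes of the cell, and an undetected probe did not show that its transcript was absent.

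Of 6 listed KRAB repressors with known targets 3 had a probe, and 0 of these 3 were detected, beside 43.4% of all genes. KRAB domains were not assessed here, so this count does not describe the KRAB genes among the other members. Zfp568, which silences a placental promoter of Igf2, read 4.05, 8.71 and -8.80, while Zfp458 gave 2.58 ± 8.11 and Zfp459 5.19 ± 5.28. The neurotrophin receptor partners Zfp110 (2.09 ± 10.1) and Zfp369 (9.37 ± 3.19), which bind the receptor Ngfr, were undetected as well. Zfp91, which encodes a ubiquitin ligase, read 149, 147 and 159 (152 ± 6.24). Zfp185, a LIM domain protein of differentiating keratinocytes, read 31.8, 50.5 and 48.0 (43.4 ± 10.1), just above the threshold, in a pool whose epidermal markers Krt14 (1313 ± 58.6), Krt5 (72.2 ± 8.97) and Trp63 (306 ± 22.0) were all detected; the part of epidermal RNA in its signal was not tested.

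**Figure D2:**
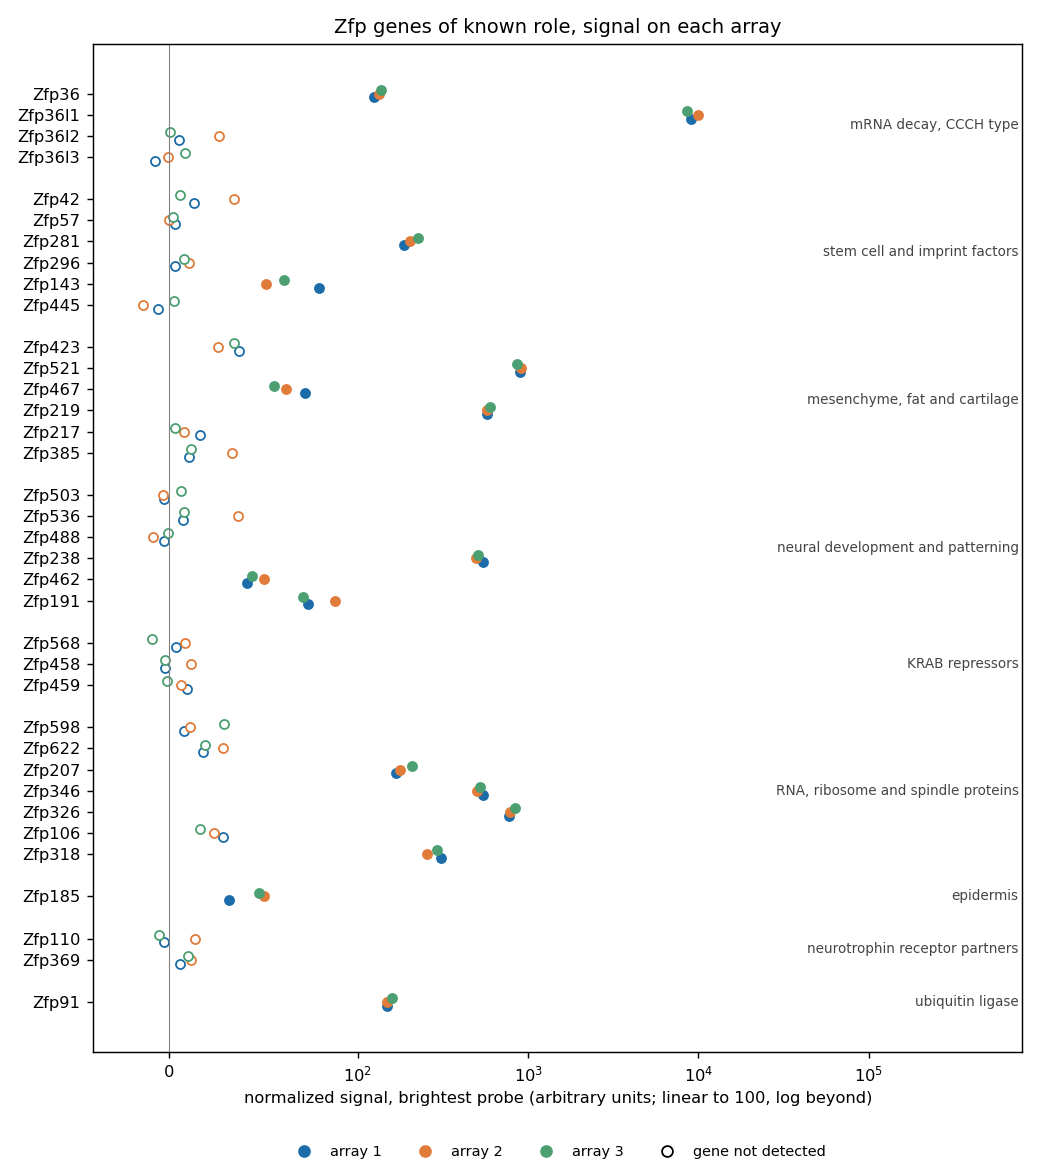
Normalized signal (arbitrary units, linear to 100 and logarithmic beyond) of the 36 measured Zfp genes of the role lists on arrays 1, 2 and 3, by the gene's brightest probe. Filled circles mark the 16 detected genes and open circles the 20 undetected ones. The undetected genes read up to 37.0 (Zfp423, array 1), which overlaps dim detected genes such as Zfp185 (31.8, array 1). Zfp36l1 reads between 8547 and 9995.

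Apart from Zfp36l1, 11 Zfp genes had a probe with a mean of at least 1000. Zfp523, whose human counterpart ZNF76 is a close relative of ZNF143, read 1951, 2337 and 2026, and both of its probes were detected. Zfp46 read 2095, 1783 and 1960. Zfp537, now Tshz3, a teashirt factor needed for the smooth muscle of the ureter, read 1871, 1944 and 1782. Array 2 was the highest of the 3 at Zfp523 and the lowest at Zfp46. Zfp212 read 1799, 1813 and 1684, but only 2 of its 5 probes were detected. Zfp261, now Zmym3, a subunit of histone demethylase complexes, read 1451, 1528 and 1471, and 1 of its 3 probes was detected. Zfp131, which encodes a BTB domain protein, read 1386, 1402 and 1342, and its other probe 1163, 1163 and 1041. Its probes thus gave the same call, unlike those of the former pair. The means of the remaining genes were 1589 ± 45.5 for Zfp41, 1424 ± 45.3 for Zfp282, whose human counterpart represses a retroviral promoter, 1131 ± 18.1 for Zfp532, 1070 ± 115 for Zfp639 and 1003 ± 43.1 for Zfp608, which represses the recombination genes Rag1 and Rag2 in thymocytes. Over all detected Zfp probes, the median signal was 222, with quartiles of 88.4 and 560, beside a median of 290 over all detected probes. A mean of at least 1000 occurred at 15 of 138 detected Zfp probes (10.9%) and at 21.0% of all detected probes, and a mean under 100 at 36 (26.1%) and 20.7%.

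Several of these genes have been renamed since the array was designed. In RefSeq, 177 of the 216 symbols were current, 38 were older names of other symbols and 1, Zfp67, was unmatched. The renamed genes included proteins that are not transcription factors. Zfp162 is now Sf1, the splicing factor that binds the branch point, and read 164, 163 and 137. Zfp259 is now Zpr1, a zinc finger protein that binds translation factor eEF1A, and read 877, 1029 and 977. Zfp289 is now Arfgap2, a GTPase-activating protein of Golgi transport, and read 566, 558 and 557. All of these were detected, as was Zfp364, now the ubiquitin ligase gene Rnf115, at 46.3 ± 16.2. It was the only 1 of 3 members now named Rnf to be detected. Zfp179, now Rnf112, gave 8.12 ± 4.71 and Zfp313, now Rnf114, 35.9 ± 10.3. Among members now named Zbtb, 5 of 7 were detected, including Zfp161, now Zbtb14, at 329 ± 4.97, while Zfp288, now Zbtb20, gave 6.98 ± 7.71. Zfp339, now Ovol2, a guardian of epithelial identity, gave 12.7 ± 9.20 and was not detected by either of its 2 probes. Among the members whose current name still starts with Zfp, 95 of 187 (50.8%) were detected, beside 43.4% of all genes. That share of all genes also stands beside the Zbtb and Rnf counts, which are small. When the rule was applied to current symbols in place of those in the array's annotation, it took in 269 genes, of which 135 (50.2%) were detected. The share of all genes was computed under the array's own symbols only. For Zfp469 the annotation gives chromosome 5 and RefSeq places the gene now so named on chromosome 8; the older use of the name belongs to Tnrc18.

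Probes of the same Zfp gene often fell on different sides of the threshold. Of the 73 genes with several probes, 12 had every probe detected, 24 had none, and 37 (50.7%) had both kinds, beside 40.7% of all such genes on the array. In 26 of the 37 at least 1 probe passed on no array, and in 16 the brightest probe read at least 300. Zfp277, a partner of the polycomb protein Bmi1, read 873, 875 and 879 with 1 probe, 38.3, 19.8 and 42.5 with another and -3.68, 2.27 and -0.144 with the last. The first probe was the steadiest of all Zfp probes, and the last stayed at background on each array. Zfp68 read 714, 645 and 658 with 1 probe and 613, 585 and 670 with another, while its remaining probe gave 37.8, 43.2 and 27.7. Zfp334 gave 593, 582 and 538 with 1 probe and 20.4, 33.5 and 12.4 with the other. In Zfp60 the readings were 444, 407 and 413 with 1 probe and -14.1, -1.81 and -7.52 with the other, and in Zfp97 they were 264, 267 and 281 with 1 of 3 probes and a mean below 0 with the others. The 49 undetected probes of the 37 genes had means from -14.6 to 48.5. At the other end lay Zfp367, whose detected probe gave 37.8 ± 10.6 and whose undetected probe gave 31.2 ± 6.27, both close to the threshold. Besides these and Zfp212, Zfp261, Zfp521, Zfp238, Zfp346, Zfp318 and Zfp289, the genes with probes of both kinds were Zfp236, Zfp535, Zfp75, Zfp64, Zfp187, Zfp161, Zfp748, Zfp771, Zfp2, Zfp295, Zfp162, Zfp513, Zfp93, Zfp446, Zfp239, Zfp291, Zfp61, Zfp297b, Zfp286, Zfp606, Zfp62, Zfp31, Zfp82 and Zfp119. Which transcript or exon each probe reads was not analysed here, and the cause of the split was not tested.

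**Figure D3:**
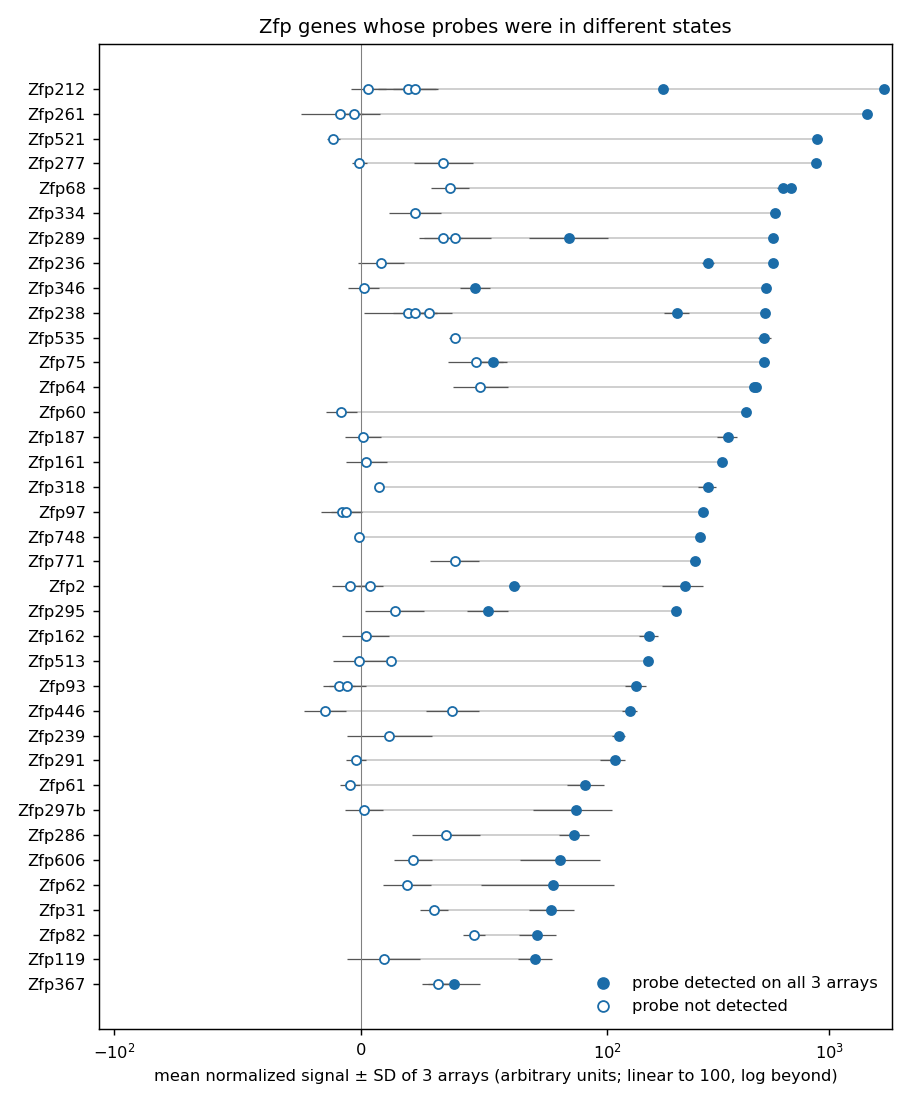
Mean normalized signal ± SD over 3 arrays (arbitrary units, linear to 100 and logarithmic beyond) of every probe of the 37 Zfp genes whose probes differed in state. Filled circles are detected probes and open circles undetected ones; a grey line joins the probes of a gene, and the undetected probes all lie below 50.

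The spread between arrays was small for most detected Zfp probes. The SD of log2 signal had a median of 0.11, the same as over all detected probes, and a 90th percentile of 0.31 beside 0.29. The highest reading of a probe was a median of 1.16-fold its lowest, under 1.5-fold in 123 of 138 probes and at least 2-fold in 4. Spread fell as signal rose. The median SD was 0.37 for the 7 probes with a mean under 50, 0.21 for the 29 from 50 to 100, 0.13 for the 43 from 100 to 300, 0.07 for the 44 from 300 to 1000 and 0.06 for the 15 of at least 1000. The corresponding medians over all detected probes were 0.30, 0.21, 0.13, 0.08 and 0.08. The steadiest genes were Zfp277, Zfp289, one probe of Zfp41 (1063, 1055 and 1075), Zfp574 (682, 669 and 671) and Zfp64 (463, 465 and 474). The least steady were Zfp98, at 29.0, 73.6 and 33.0, a dim probe of Zfp523, at 50.6, 79.4 and 35.3, Zfp1, at 44.2, 87.5 and 47.6, Zfp62, at 70.9, 110.3 and 53.0, and Zfp364, at 44.2, 63.5 and 31.3. All 5 were dim, and all 5 were highest on array 2. Over all detected Zfp probes array 2 did not stand higher, with a median log2 difference from array 1 of -0.01, and it was highest at 50 probes and lowest at 47. For the 7 probes under 50 the median difference was 0.52, beside 0.43 over all detected probes of that range. The detection rule raises this difference by construction, because passing took a higher reading on array 2. An undetected probe of Zfp31 passed at 23.3 on array 1 and 31.5 on array 3 but missed at 34.2 on array 2. Zfp469 missed there at 43.9. Dim probes that read low on array 2 were thus left out, which also bears on the least steady probes.

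**Figure D4:**
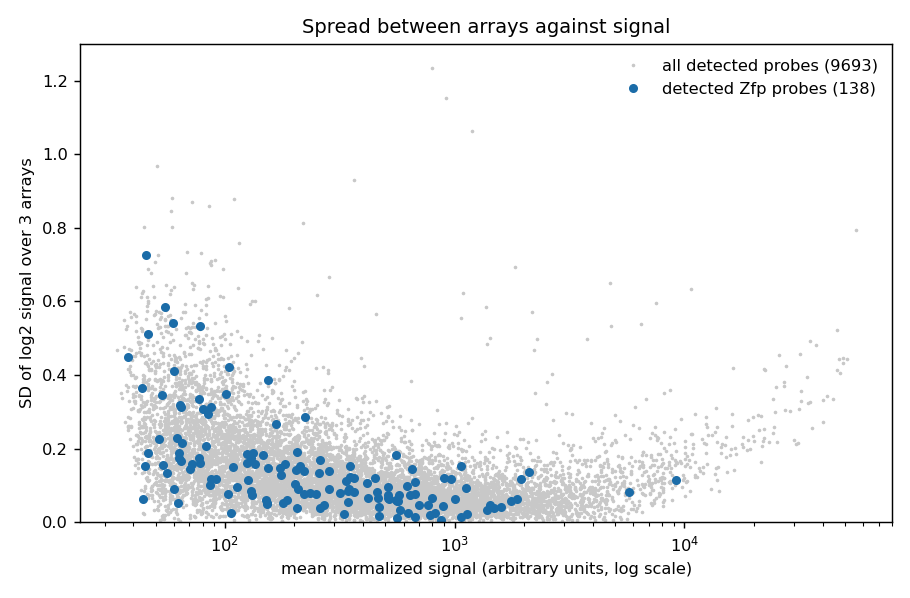
SD of log2 signal over the 3 arrays (y) against mean normalized signal (x, arbitrary units, log scale) for the 138 detected Zfp probes (blue) and all 9693 detected probes (grey). The Zfp probes lie within the cloud of all probes, with the largest SD, 0.73 for Zfp98, at the dim end.

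Zfp genes lie in clusters, and detection was looked at along them. Using the order of protein-coding genes in RefSeq, a run was taken as at least 3 Zfp genes of the array, each at most 3 steps in that order from the next. There were 14 runs with 61 genes, of which 23 (37.7%) were detected, beside 91 of the 153 placed elsewhere (59.5%). The share over all genes was 43.4%, or 46.7% without the chemosensory and beta-defensin genes. Genes in runs more often had a single probe (75.4% against 62.1%), and among genes with 1 probe the shares were 13 of 46 (28.3%) and 52 of 95 (54.7%). Over all genes with 1 probe the share was 37.7%. Genes of a run share ancestry and sequence and are not independent, and near-identical copies can bind each other's probes, so these shares are a description. Over all Zfp genes, 41 pairs lay directly next to each other in that order, and 65.9% of them had the same state, beside 58.6% of 13717 such pairs of all genes. In 10 pairs both genes were detected, in 17 neither and in 14 only 1. On chromosome 13, Zfp96, now Zscan12, read 771, 790 and 787, Zfp307, now Zkscan3, a repressor of autophagy genes, 663, 713 and 585, and Zfp187, now Zscan26, 379, 310 and 361. The next of that run, Zfp192, now Zkscan8, read 9.25, -15.9 and 10.1. So 3 of these 4 neighbours were detected and 1 lay at background. On chromosome 17 none of Zfp54, Zfp51, Zfp53 and Zfp52 was detected, their means lying between -4.70 and 31.9. The run on chromosome 6 was mixed, with Zfp282, Zfp212 and Zfp467 detected among its 6 genes. Chromosome 7 held 51 Zfp genes, more than any other, and 23 of them (45.1%) were detected, below the 52.8% of all Zfp genes. Of all genes on that chromosome 37.3% were detected. That share keeps any chemosensory and beta-defensin genes there and was not computed without them.

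**Figure D5:**
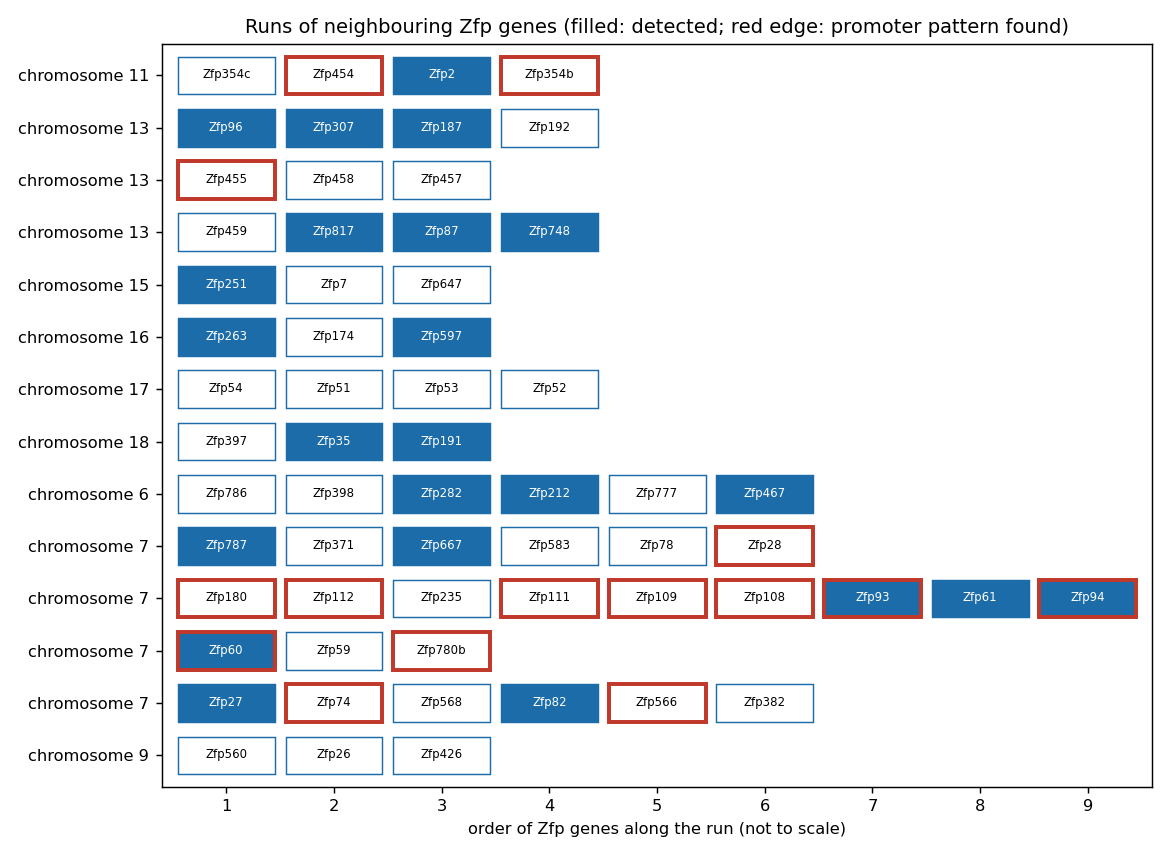
The 14 runs of neighbouring Zfp genes, 1 line per run, in gene order (x, not to scale). Filled boxes are detected genes (23 of 61) and a red edge marks a promoter that holds the sequence pattern described in the text; the run of 9 on chromosome 7 holds 7 such promoters.

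The longest run, 9 genes on chromosome 7, had 3 detected genes at one end. Zfp93 read 148, 119 and 137, Zfp61 read 84.0, 98.8 and 90.6, and Zfp94 read 194, 238 and 203. Zfp180, Zfp112, Zfp235, Zfp111, Zfp109 and Zfp108 were not detected, with means between -7.92 and 46.4, the highest being Zfp235 at 44.1, 32.1 and 63.0. Promoters of these genes, taken from RefSeq (GRCm38.p6) as 250 bases before to 50 after the start site, carried a shared stretch. The pattern was CTGGGA, then any 3 bases, then GTAGT, searched on both strands. It was noticed in these promoters and written down after they had been seen, and as background it resembles the known binding element of Zfp143. It was found in 7 of the 9 promoters, those of Zfp235 and Zfp61 being the exceptions. The windows are shown because they let the members of the run be compared base by base. Capitals mark the fixed letters of the pattern, each window is written on the strand of its gene and ends before the start site. The promoter of Zfp108 held 2 matches, of which 1 is shown.
Zfp180, chr7:24081842-24081896, + strand, not detected: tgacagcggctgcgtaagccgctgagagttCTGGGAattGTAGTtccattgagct
Zfp112, chr7:24112139-24112198, + strand, not detected: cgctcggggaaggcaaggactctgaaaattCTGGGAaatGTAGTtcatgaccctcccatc
Zfp111, chr7:24208186-24208245, - strand, not detected: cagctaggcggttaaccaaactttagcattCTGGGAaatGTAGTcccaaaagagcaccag
Zfp109, chr7:24237696-24237755, - strand, not detected: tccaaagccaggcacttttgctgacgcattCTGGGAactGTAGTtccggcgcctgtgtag
Zfp108, chr7:24254638-24254697, + strand, not detected: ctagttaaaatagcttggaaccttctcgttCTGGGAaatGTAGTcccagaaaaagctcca
Zfp93, chr7:24270314-24270373, + strand, detected: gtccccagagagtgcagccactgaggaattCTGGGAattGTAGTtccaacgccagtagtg
Zfp94, chr7:24316667-24316721, - strand, detected: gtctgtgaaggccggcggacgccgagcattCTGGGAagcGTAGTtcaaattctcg

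Both detected and undetected genes of the run carried it, 2 of the 3 detected and 5 of the 6 undetected. The promoter table held 172 of the 216 Zfp genes (79.6%), which is under the 80% required here, so a check over all Zfp genes is void and the following shares describe those 172 only. The 9 promoters of the run in which the pattern was noticed are counted in these shares and raise them by construction, so each is also given without them. The pattern was present in 24 of the 172 (14.0%), or 17 of 163 (10.4%) without that run, in 371 of 27025 promoters of all genes in the table (1.37%) and in 260 of 13268 array genes that are no member (1.96%). Of the 61 genes in runs, 49 had a promoter and 15 of these (30.6%) held it, or 8 of 40 (20.0%) without that run, while elsewhere 9 of 123 (7.32%) did. On chromosome 7 it occurred in 15 of 44 (34.1%), or 8 of 35 (22.9%) without that run, and on the other chromosomes in 9 of 128 (7.03%). The median number of CpG dinucleotides per 300 bases was 14 in the promoters of runs and 20 elsewhere. A match is a run of letters in a window and not a measured binding site, and a promoter without one says only that these letters were not in it.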

How the data were processed

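RNA of 1 pool was measured on 3 Illumina MouseRef-8 v2.0 bead arrays. RNA came from a Trizol extraction with DNase I treatment and was labelled with biotin, per the labels' protocols. The authors deposited non-normalized and normalized bead intensity, the latter a linear function of the former on each array (largest residual 0.0152), with offsets of -57.2, -152 and -63.5. Per the file headers, each probe also has a detection p-value per array, equal in both tables. The deposited value table equalled the normalized intensity. Neither the scanner software nor the name of the normalization is given in the sources used here. Normalized values below 0 occurred at 59, 56 and 63 Zfp probes; log2 was taken of detected probes only, all above 0.

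Members are probes whose deposited symbol is Zfp and a digit. Members, role lists and the promoter pattern were chosen with earlier results of these data known. The genes named are all role-list members with a probe, all with a mean of at least 1000, all with probes of both states, and the 5 with the largest and smallest SD of log2; genes in runs, renamed genes and the probes given with values among the split genes were picked after their values were seen. Of 50 listed role genes 14 had no probe under their name and were not analysed here. Protein sequences were not used here, so a planned count of zinc fingers and KRAB domains could not be made. No build is named for the array files; gene names and gene order came from RefSeq GRCm38.p6. The 3 arrays limit precision to technical error, and SDs measure only that. With 1 group no test was made and no pairing applies. Python 3.11.15, pandas 2.3.3, numpy 2.4.6 and matplotlib 3.10.9 were used, and the procedures were tested on simulated data. Alternatives covered detection thresholds, arrays and probes required, the normalization, run distance and the pattern.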

Additional observations from a re-analysis of the deposited data

How the results depend on the processing

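The count of 114 detected Zfp genes (52.8%, beside 43.4% of all genes) became 127 (58.8%, beside 48.3%) at a detection p under 0.05, 98 (45.4%, beside 39.4%) at a p under 0.001 and 125 (57.9%, beside 46.8%) without array 2. When all probes of the gene were required it was 77 (35.6%, beside 32.4%), the setting at which the Zfp share lay closest to that of all genes. The shares of all genes at these settings keep the chemosensory and beta-defensin genes, which lower them. They were not computed without those genes, so a Zfp excess at each setting is not established. The median SD of log2 signal depended on the normalization. It was 0.688 on the non-normalized intensity, where array 2 is dimmer by a median log2 difference of -1.21, and 0.0708 after quantile normalization. Leaving out each array gave 0.0722 to 0.0927. Of the 82 genes named by the stated rule, Zfp143, Zfp185, Zfp364, Zfp367, Zfp462, Zfp467, Zfp606, Zfp82 and Zfp98 were not detected at a p under 0.001. Among the same 82, Zfp622 became detected at a p under 0.05, Zfp423 on at least 2 arrays or without array 2, and Zfp106 on at least 1. All 37 genes with probes of both states were lost, by construction, when every probe had to be detected. The share detected in runs lay between 28.3% and 45.9% and elsewhere between 51.0% and 64.7%, over settings for run distance, probes per gene, threshold and arrays chosen after seeing the data. Beside these, the share of all genes was 37.7% among genes with 1 probe, 39.4% at a p under 0.001 and 48.3% at a p under 0.05. The stricter pattern, with T before GTAGT, occurred in 11.6% of the 172 promoters, beside 1.18% of all genes. Most windows shown from the run of 9 have that T, and the run is counted in the 11.6%. This share is thus raised by construction too, and it was not computed without the run. Without the run of 9 the original pattern occurred in 20.0% of the promoters in runs. The comparisons by number of zinc fingers and by KRAB domain were not run. No paired analysis was possible because there is 1 group and no comparison between groups. Dim probes limit the calls: 40 Zfp probes passed on 1 or 2 arrays only, and an undetected gene was not shown to be absent.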
